A study of Mus musculus with 10 samples.

Results

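The 37 genes whose names begin with mt- are the genes of the mouse mitochondrial genome, and all of them were taken from the 55487 genes of the count table by that name alone: 13 protein genes, 2 rRNA genes and 22 tRNA genes. They were followed in 10 ovaries of C57BL/6J mice from 3 groups: Control, 8 weeks old (n = 4, ovaries 31, 32, 33 and 34), Aged, 11 months old (n = 3, ovaries 31, 33 and 34), and Aged+CF, 11 months old and given CEFFE, a cell-free extract of human fat (n = 3, ovaries 30, 32 and 34). All ovaries were taken 48 h after PMSG, and the study extracted total RNA and describes the sequencing as that of mRNA, and how rRNA and tRNA entered the libraries was not tested. The ages are those of the labels, and the methods text of the study gives another age for the aged mice. The question asked of these genes was how their RNA differed between Aged and Control ovaries and between Aged+CF and Aged ovaries, the protein genes and the RNA genes kept apart.

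The mitochondrial genome is a small circle that is transcribed from both strands into long precursors, and the tRNA genes that sit between the other genes mark where the precursors are cleaved. All of its proteins are core subunits of the respiratory chain and ATP synthase, built with many more subunits encoded in the nucleus, and its rRNAs and tRNAs serve the mitochondrial ribosome. In the ovary, oocytes hold very large numbers of mitochondrial genomes, and steroid-producing cells carry out the first step of steroid synthesis inside mitochondria.

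Of the 37 genes, 30 had enough counts to be tested, among 18956 tested genes of the whole table: all 13 protein genes, both rRNA genes and 15 of the 22 tRNA genes. Levels within a gene are given as TMM-normalised CPM (counts scaled to library size), levels between genes as FPKM, and fold changes as log2 ± SE from edgeR, and p-values rest on separate ovaries. A gene was called at an adjusted p under 0.05 with a fold change of at least 1.5, and counts at unadjusted p with the same fold are given beside it. Counts given by DESeq2 are calls at its own adjusted p with the same fold, unless stated. The libraries held 15761789 to 21318254 counted reads.

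Some ovaries stood apart from their own group before any test. Aged 33 had the lowest TMM factor (0.871, the other 9 between 0.970 and 1.05), the highest summed luteal markers (34863 CPM, beside 24337 and 13694 in Aged 31 and Aged 34) and the lowest summed stromal markers (1804 CPM, the other 9 between 3272 and 5469). Aged 34 had the highest summed B and plasma cell markers (179 CPM, beside 20.1 and 6.70 in Aged 31 and Aged 33) and macrophage markers (862 CPM, beside 339 and 351). Oviduct markers were high in Control 33 (398 CPM) and Aged 34 (309.9 CPM), the other 8 between 4.16 and 37.8, and whether oviduct came along with these 2 ovaries was not tested. Because Aged 33 was also the ovary with the most mitochondrial RNA, the calls and the larger folds are given with it and without it.

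The share of all counted reads that fell on the mitochondrial genes set the frame for the single genes. The 13 protein genes took 2.78, 2.82, 2.69 and 3.15 % of counted reads in Control 31 to 34, 3.91, 5.94 and 3.55 % in Aged 31, 33 and 34, and 3.49, 3.27 and 2.98 % in Aged+CF 30, 32 and 34. Aged 33 stood far above every other ovary, the 3 Aged ovaries lay above all Control ovaries and above all Aged+CF ovaries, and Aged+CF and Control overlapped. Group means were 2.86 ± 0.200 % (Control), 4.47 ± 1.29 % (Aged) and 3.24 ± 0.254 % (Aged+CF). The 2 rRNA genes took 0.0336 ± 0.00614 %, 0.0580 ± 0.0134 % and 0.0332 ± 0.00633 %. The 22 tRNA genes took 0.00795 ± 0.00165 %, 0.0133 ± 0.00381 % and 0.00835 ± 0.00141 % in the same order. In each class the Aged ovaries were the highest, though for the tRNA genes the counting interval of Aged 34 (0.0102 to 0.0112 %) overlapped those of Control 34 (0.00944 to 0.01035 %) and Aged+CF 30 (0.00951 to 0.01045 %). From counting error alone the 95 % interval of a share reached at most 0.0115 percentage points to either side for the protein genes, 0.00131 for the rRNA genes and 0.000646 for the tRNA genes.

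**Figure D1:**
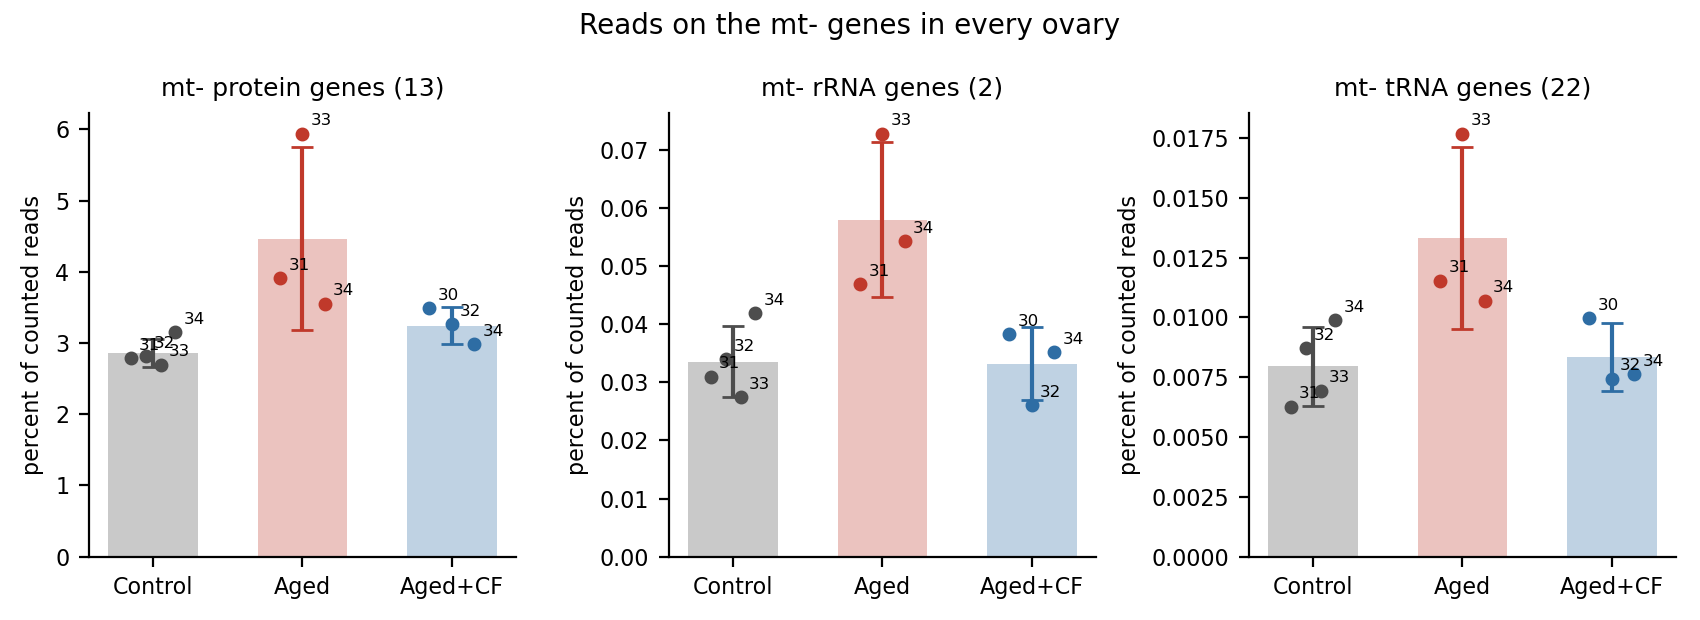
Percent of counted reads on the 13 protein genes, 2 rRNA genes and 22 tRNA genes of the mitochondrial genome; points are single ovaries labelled by number, bars the group mean, error bars the SD. In all 3 panels Aged 33 is the highest point and the Control and Aged+CF points overlap.

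In Aged vs Control, edgeR called 15 of the 30 tested mt- genes higher in Aged and 0 lower (0 lower at unadjusted p and 0 by DESeq2 as well). Over all 18956 tested genes the same rule called 948 higher (5.001 %) and 1148 lower (6.06 %). The 15 genes were 7 of 13 protein genes, 2 of 2 rRNA genes and 6 of 15 tRNA genes. At unadjusted p, 25 of 30 were higher (12 protein, 2 rRNA and 11 tRNA genes), beside 1666 of all tested genes (8.79 %). The CPM of the Aged ovaries lay wholly above those of the Control ovaries for 24 of 30 genes, which held for 2242 of all tested genes (11.8 %). The direction was shared beyond the called genes: 29 of 30 log2 folds were positive, with a median of 0.76 for protein genes, 0.93 for rRNA genes and 1.07 for tRNA genes, beside −0.001 for all tested genes. Without Aged 33 the calls went from 15 to 9 (3 protein, 2 rRNA and 4 tRNA genes; 812 higher of 19626 genes tested in that fit) and the medians to 0.47, 0.69 and 0.62. At unadjusted p 13 of 30 were then higher (3 protein, 2 rRNA and 8 tRNA genes; 1700 of 19626) and 27 of 30 log2 folds were positive, with mt-Tl2 at −0.14 and mt-Th, chosen after its values were seen, at −0.17, so this ovary carried much of the size of the difference and the direction of these 2 genes. Without Control 31, 32, 33 or 34 the calls were 9, 6, 7 and 12, and without Aged 31 or Aged 34 they were 14 and 24. For these fits the counts over all tested genes are not given here, so the calls stand without a share beside them. The 6 genes called with any single ovary left out were mt-Nd2, mt-Nd3, mt-Tg, mt-Tr, mt-Tm and mt-Tl1. They sit in 3 places on chrM: mt-Tl1 before mt-Nd1, mt-Tm and mt-Nd2 side by side, and mt-Tg, mt-Nd3 and mt-Tr side by side.

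**Figure D2:**
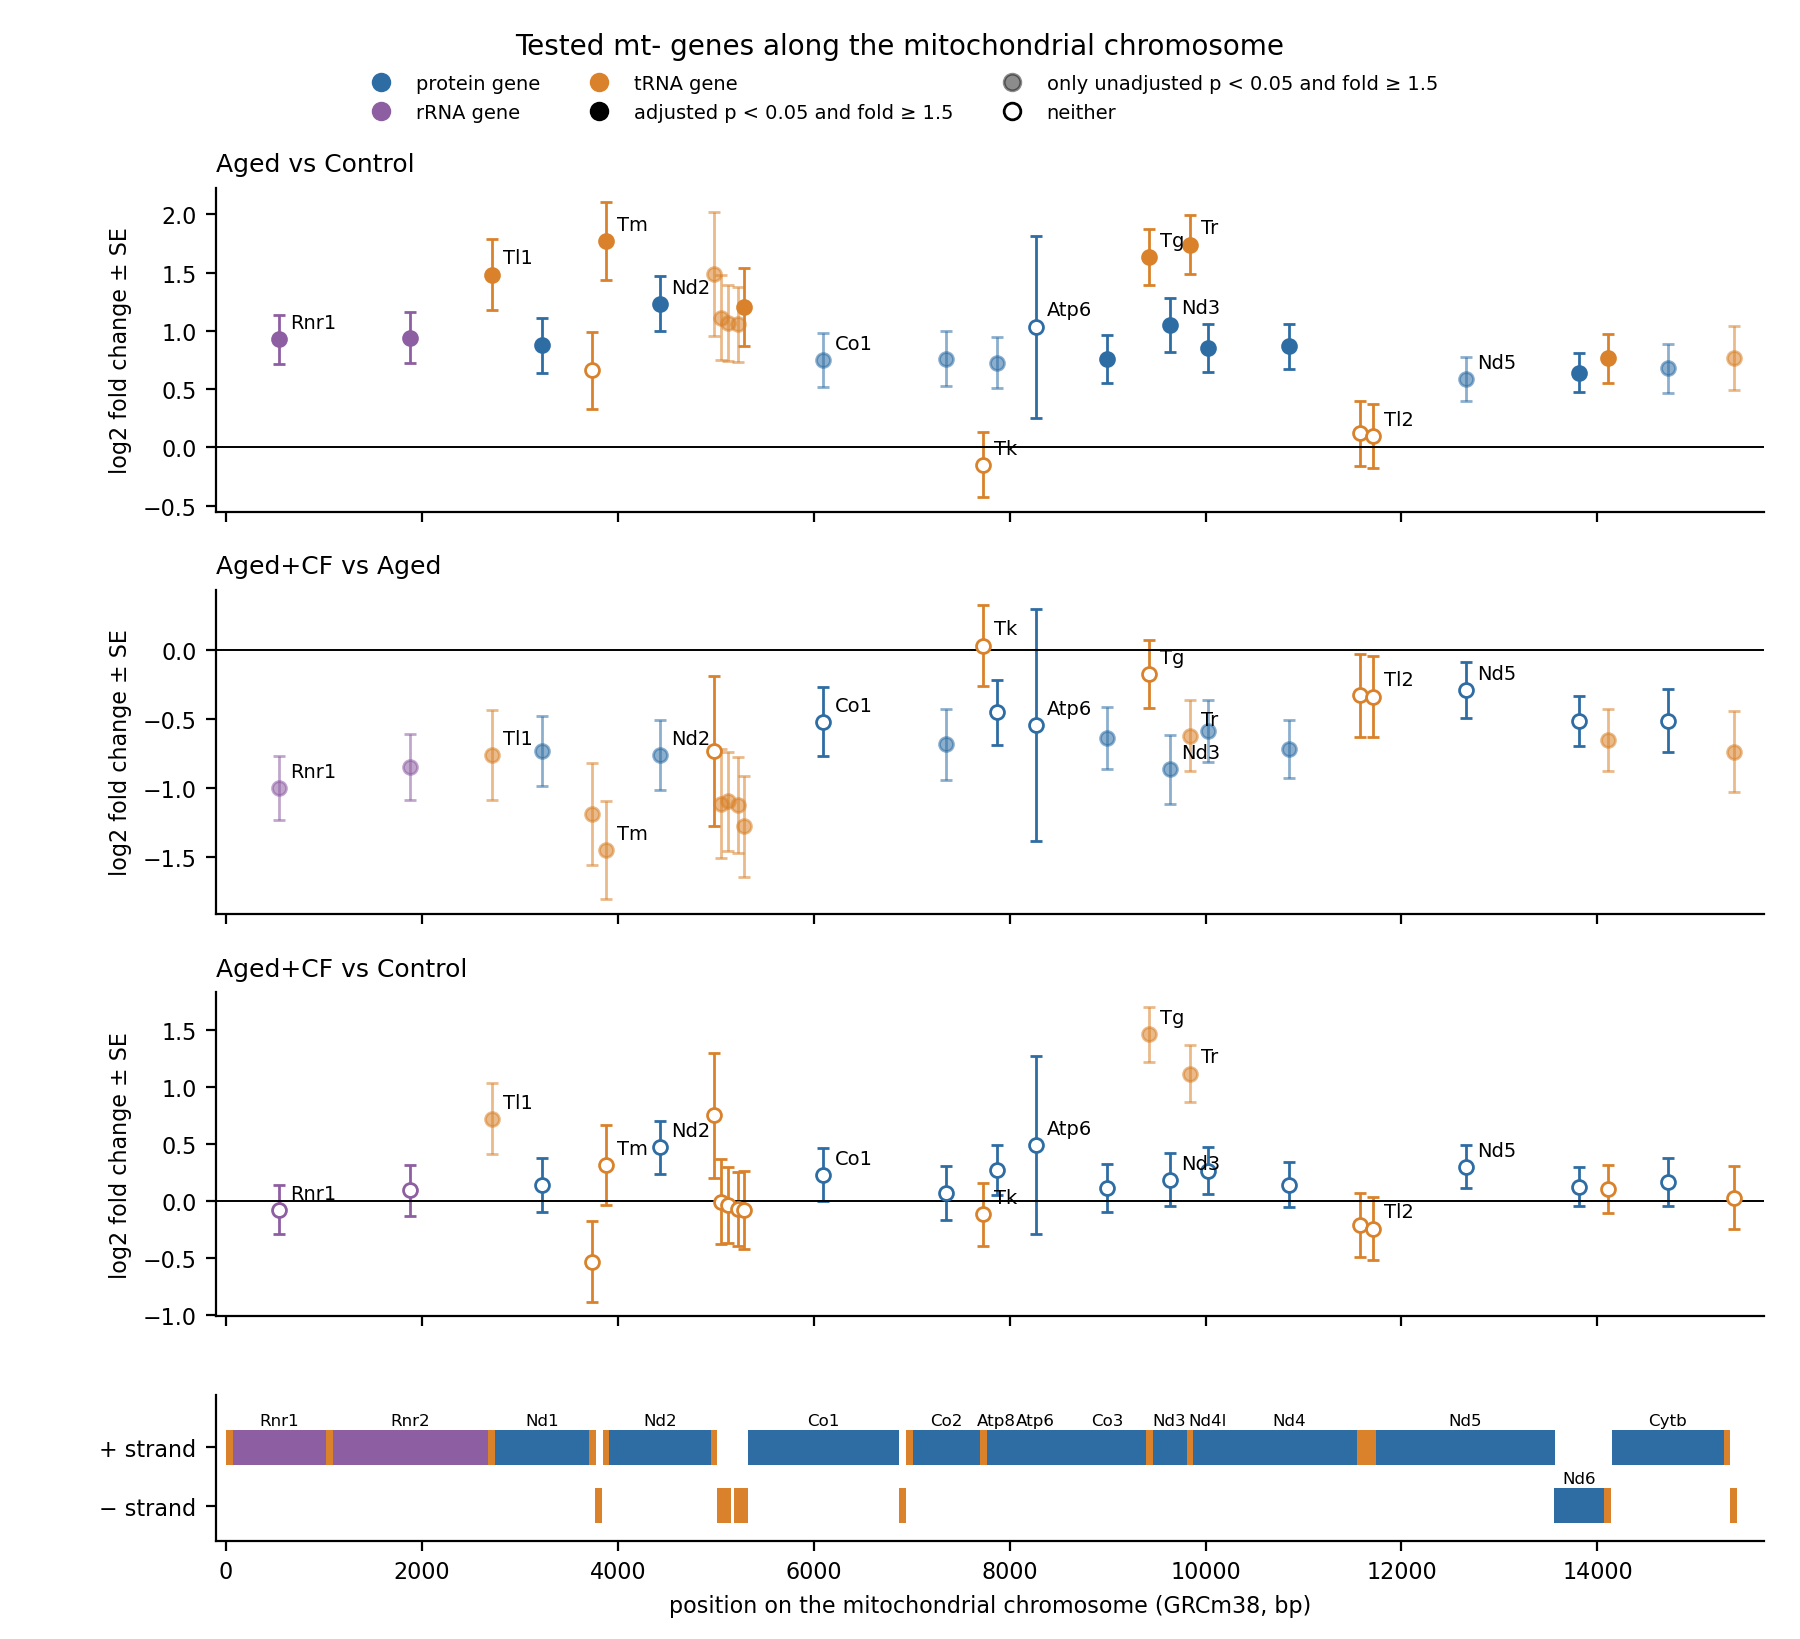
Log2 fold ± SE of the 30 tested mt- genes against their position on chrM (GRCm38) in 3 comparisons, above a map of the genes on both strands; filled points were called at adjusted p, pale points only at unadjusted p, open points at neither. In Aged vs Control nearly all points lie above 0, and in Aged+CF vs Aged nearly all lie below it.

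Complex I takes electrons from NADH and pumps protons, and 7 of its subunits are mitochondrial. mt-Nd2, an antiporter-like proton-pumping subunit, had 1426, 1408, 1307 and 1463 CPM in Control 31 to 34, 2856, 4829.7 and 2187 CPM in Aged 31, 33 and 34, and 1887, 2186 and 1744 CPM in Aged+CF 30, 32 and 34. All Aged ovaries lay above all Control ovaries, and Aged+CF 32 nearly reached Aged 34. It rose in Aged vs Control from 1401 ± 66.5 to 3291 ± 1374 CPM, a log2 fold of 1.23 ± 0.23 (adjusted p 0.0112) that was the largest of the protein genes, and without Aged 33 by 0.88 (adjusted p 0.0116). mt-Nd3, a small membrane subunit by the quinone cavity, had 127, 151, 136 and 159 CPM (Control), 243, 448 and 199 (Aged) and 173, 154 and 162 (Aged+CF). The Aged ovaries stood above both other groups with no overlap. Its rise was 1.05 ± 0.23 (adjusted p 0.0174), and without Aged 33 0.66 (adjusted p 0.0143).

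Among the other complex I genes, mt-Nd4, also antiporter-like, had 2469.5, 2514, 2249 and 2687 CPM (Control), 4027, 6103 and 3423 (Aged) and 2844, 2864 and 2512 (Aged+CF). The Aged ovaries were again above all others. It rose by 0.87 ± 0.19 (adjusted p 0.0185), without Aged 33 by 0.62 (adjusted p 0.0195), and missed the threshold without Control 32 or Control 33 (adjusted p 0.0552 and 0.0525). mt-Nd1, the subunit that joins the membrane arm to the matrix arm, had 2123, 2301, 2124 and 2408 CPM (Control) and 3369.8, 6094 and 2861 CPM (Aged), with Aged 33 far above the rest. Its log2 fold was 0.88 ± 0.23 (adjusted p 0.0339), but without Aged 33 it was 0.51 (adjusted p 0.0332), under the fold threshold, and without Control 31, 32, 33 or 34 the adjusted p was 0.0779, 0.0825, 0.0798 and 0.0729. mt-Nd4l, a small subunit whose gene overlaps that of mt-Nd4 by 7 bp, had 338, 289, 284 and 333 CPM (Control) and 473, 807 and 406 CPM (Aged). The groups did not overlap, and the log2 fold was 0.85 ± 0.21 (adjusted p 0.0243), but without Aged 33 it was 0.53 (adjusted p 0.0314), under the fold threshold, with an adjusted p of 0.0688 at most without Control 32, 33 or 34. mt-Nd6, the only protein gene on its strand, had 387, 541, 452 and 594 CPM (Control) and 717, 906 and 683 CPM (Aged). Here the groups were closer, Aged 34 standing next to Control 34, and the log2 fold was 0.64 ± 0.17 (adjusted p 0.0317), but without Aged 33 it was 0.54 (adjusted p 0.0682), and its adjusted p was over 0.05 without Control 31, 32 or 33 too (0.0768 at most). mt-Nd5, the outermost pumping subunit, was not called by edgeR (0.59 ± 0.19, adjusted p 0.0612), while it was by DESeq2 and without Aged 34 (0.76, adjusted p 0.0182), and without Aged 33 it was 0.38 (adjusted p 0.112).

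Complex III passes electrons from quinol to cytochrome c, and mt-Cytb, which holds its haem b groups, is its 1 mitochondrial subunit. It had 3445, 3965, 3487 and 4205 CPM (Control), 5237, 8367 and 4523 (Aged) and 4199, 4405 and 4092 (Aged+CF), so the Aged ovaries were the highest 3. The difference was not called by edgeR (0.68 ± 0.21, adjusted p 0.0556), while it was by DESeq2 and without Aged 34 (0.89, adjusted p 0.0129), and without Aged 33 it was 0.40 (adjusted p 0.0696). Complex IV reduces oxygen, with mt-Co1 as the subunit that holds its catalytic centre. By FPKM and by counts mt-Co1 was the most abundant of all genes in every ovary, at a mean of 6674, 10114 and 7630.1 FPKM in Control, Aged and Aged+CF. Its CPM were 9768, 9982, 9797 and 10359.5 (Control), 14753, 23486 and 12160.1 (Aged) and 12218, 11394 and 11472 (Aged+CF). All Control ovaries were the lowest, but Aged 34 stood next to Aged+CF 30, and the Aged vs Control fold was not called by edgeR (0.75 ± 0.23, adjusted p 0.0540), while it was by DESeq2, with no filter on low counts and without Aged 34 (0.98, adjusted p 0.0111); without Aged 33 it was 0.46 (adjusted p 0.0492), under the fold threshold. mt-Co2, which takes electrons from cytochrome c, was likewise not called by edgeR (0.76 ± 0.24, adjusted p 0.0548), with a call by DESeq2 and without Aged 34 (1.004, adjusted p 0.0107), and without Aged 33 it was 0.39 (adjusted p 0.0687). mt-Co3, a core subunit without a metal centre, had 1549.7, 1851, 1747 and 1918 CPM (Control) and 2639.8, 4152 and 2148 CPM (Aged), Aged 33 far above the others. It was called with all ovaries (0.75 ± 0.21, adjusted p 0.0364) but not without Aged 33 (0.47, adjusted p 0.0460, under the fold threshold) nor without any 1 Control ovary (adjusted p 0.0872 at most).

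ATP synthase has 2 mitochondrial subunits whose reading frames overlap. mt-Atp8, a small subunit of the stator, had 228, 222, 204 and 241 CPM (Control), 295, 551 and 265 (Aged) and 293, 270.2 and 249 (Aged+CF). Aged 34 lay among the Aged+CF ovaries, and the Aged vs Control fold fell just outside the threshold (0.73 ± 0.22, adjusted p 0.0501), inside it by DESeq2 and without Aged 31 (0.90, adjusted p 0.0452) or Aged 34 (0.96, adjusted p 0.0110), and further outside without Aged 33 (0.35, adjusted p 0.0586). mt-Atp6, the subunit that forms the proton path beside the rotor, behaved unlike every other protein gene. Its counts were 29449, 6586, 7855 and 37901 in Control 31 to 34, 10371, 58359 and 40635 in Aged 31, 33 and 34, and 38416, 36746 and 9904 in Aged+CF 30, 32 and 34. Ovaries with few reads occurred in every group, so the groups overlapped and the fold was not called (1.04 ± 0.78, adjusted p 0.402). Without Aged 33 the log2 fold was 0.35 (adjusted p 0.828). Gm10925, a copy on chromosome 1 that matches mt-Atp6 over 678 aligned bases with 0 substitutions, showed no such split, with 31162, 31906, 36703 and 41196 counts (Control), 47654, 66100 and 44317 (Aged), and 40454, 38523 and 45918 (Aged+CF). The ratio of mt-Atp6 to Gm10925 was 0.206 to 0.218 in Control 32, Control 33, Aged 31 and Aged+CF 34 and 0.883 to 0.954 in the other 6 ovaries. A sequence shared by both cannot assign a read to either, so the level of mt-Atp6 is uncertain, and why 4 ovaries differ was not tested. The bases that mt-Atp8 and mt-Atp6 share (chrM:7927-7969, + strand, GRCm38) are shown because a read inside them belongs to both genes; capitals mark the start codon of mt-Atp6.
overlap of mt-Atp8 and mt-Atp6: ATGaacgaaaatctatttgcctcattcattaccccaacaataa

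**Figure D3:**
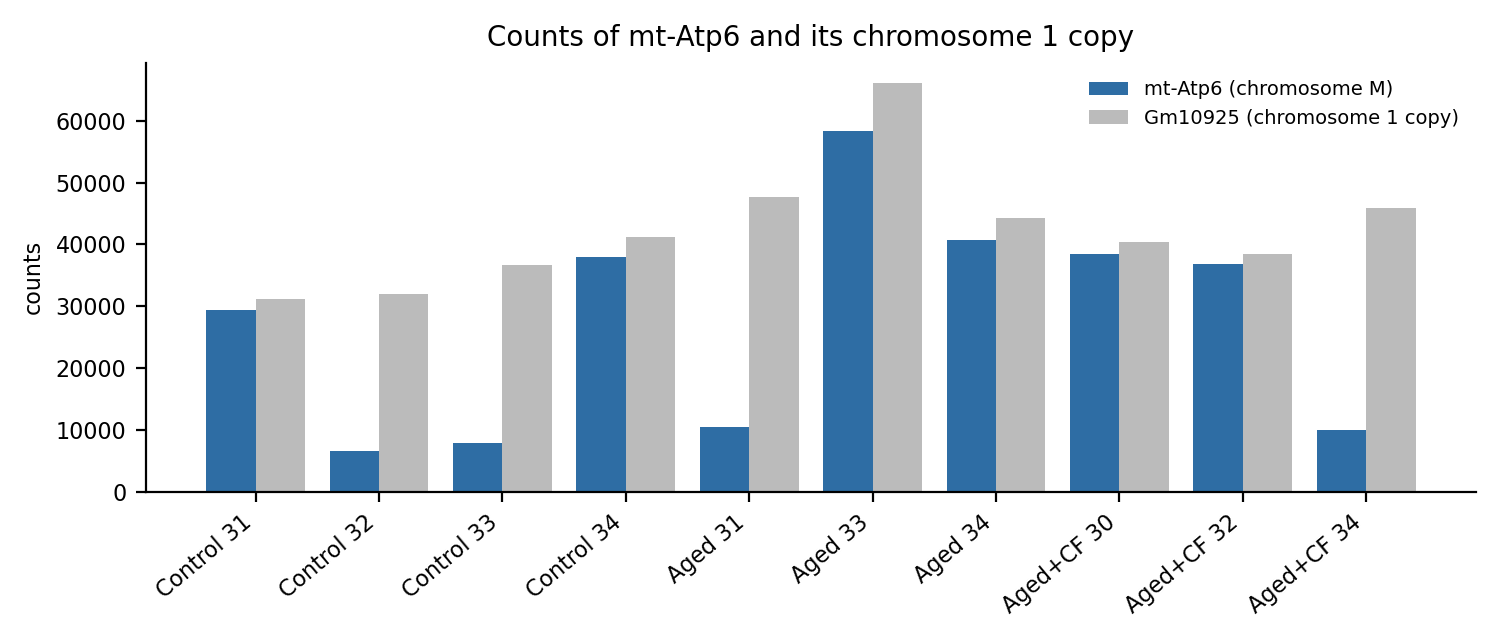
Counts of mt-Atp6 and of its chromosome 1 copy Gm10925 in each of the 10 ovaries. In Control 32, Control 33, Aged 31 and Aged+CF 34 mt-Atp6 lies far below the copy, in the other 6 ovaries close to it.

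Both rRNA genes were called in Aged vs Control. mt-Rnr1, the RNA of the small ribosomal subunit, had 145, 148, 122 and 180 CPM (Control), 216, 379 and 252 (Aged) and 159, 109 and 155 (Aged+CF). mt-Rnr2, the RNA of the large subunit, had 154, 186, 141 and 226 CPM (Control), 269, 458 and 291 (Aged) and 214, 153 and 198 (Aged+CF). For both, all 3 Aged ovaries stood above every ovary of the other groups, and Aged+CF 32 was among the lowest. mt-Rnr1 rose by 0.93 ± 0.21 (adjusted p 0.0197), without Aged 33 by 0.68 (adjusted p 0.0410), and missed the threshold without Control 32 (0.92, adjusted p 0.0546). mt-Rnr2 rose by 0.94 ± 0.22 (adjusted p 0.0212), without Aged 33 by 0.69 (adjusted p 0.0456), and missed it without Control 31, 32 or 33 (adjusted p 0.0518 to 0.0533). By FPKM they were the 2 lowest of the 15 protein and rRNA genes in all groups (Control mean 161 for mt-Rnr1 and 115 for mt-Rnr2, beside 425 for mt-Nd3, the next lowest).

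The tRNA genes were read far less deeply, and whether their reads came from mature tRNA or from longer precursors cannot be told apart here. mt-Tg, the tRNA for glycine, lies directly before mt-Nd3 and had 11, 15, 16 and 18 counts (Control), 40, 43 and 44 (Aged) and 40, 35 and 56 (Aged+CF), or 0.642, 0.935, 0.811 and 0.954 CPM, 2.39, 3.03 and 2.43 CPM and 2.29, 2.01 and 2.63 CPM. Control ovaries were low, and Aged and Aged+CF ovaries were both high and overlapped. It rose in Aged vs Control by 1.64 ± 0.24 (adjusted p 0.00527), and without Aged 33 by 1.55 (adjusted p 0.0122). mt-Tr, the tRNA for arginine, lies just behind mt-Nd3 and had 8, 12, 13 and 13 counts (Control), 34, 35 and 36 (Aged) and 26, 26 and 26 (Aged+CF). Its Aged ovaries were the highest 3 and close to one another, and the Aged+CF ovaries lay between the other groups. The rise was 1.74 ± 0.25 (adjusted p 0.00515), and without Aged 33 1.67 (adjusted p 0.0127).

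Calls that held with any ovary left out were also found for the tRNA genes directly before mt-Nd2 and mt-Nd1. mt-Tm, the tRNA for methionine, directly before mt-Nd2, had 12, 7, 10 and 13 counts (Control), 20, 39 and 38 (Aged) and 14, 11 and 16 (Aged+CF), or 0.700, 0.436, 0.507 and 0.689 CPM (Control), 1.19, 2.75 and 2.095 (Aged) and 0.803, 0.632 and 0.750 (Aged+CF). All Aged ovaries were above both other groups, and it rose by 1.77 ± 0.33 (adjusted p 0.0111), without Aged 33 by 1.51 (adjusted p 0.0287). mt-Tl1, the tRNA for leucine that reads UUR codons, directly before mt-Nd1, had 2.86, 3.55, 2.94 and 4.35 CPM (Control), 7.10, 13.8 and 7.94 (Aged) and 7.86, 5.23 and 3.89 (Aged+CF). Aged+CF 30 reached the Aged level, and mt-Tl1 rose in Aged vs Control by 1.48 ± 0.31 (adjusted p 0.0145), without Aged 33 by 1.16 (adjusted p 0.0345). mt-Tl2, the other tRNA for leucine, reads CUN codons and stands before mt-Nd5, and its groups overlapped, with 5.54, 11.7, 7.96 and 9.07 CPM (Control) and 8.65, 12.4 and 6.56 CPM (Aged) and no call (0.10 ± 0.27, adjusted p 0.847). The sequences of these 5 tRNA genes are shown because the first 4 carry the calls that any single omitted ovary left in place and the fifth is the leucine counterpart that was not called; capitals mark the anticodon.
mt-Tg: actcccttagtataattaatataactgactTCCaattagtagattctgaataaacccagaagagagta
mt-Tr: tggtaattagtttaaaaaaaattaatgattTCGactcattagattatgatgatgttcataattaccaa
mt-Tm: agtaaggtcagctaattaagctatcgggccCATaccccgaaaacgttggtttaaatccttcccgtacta
mt-Tl1: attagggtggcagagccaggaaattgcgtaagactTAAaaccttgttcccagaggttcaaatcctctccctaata
mt-Tl2: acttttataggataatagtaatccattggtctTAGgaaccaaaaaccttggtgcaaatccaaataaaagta

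**Figure D4:**
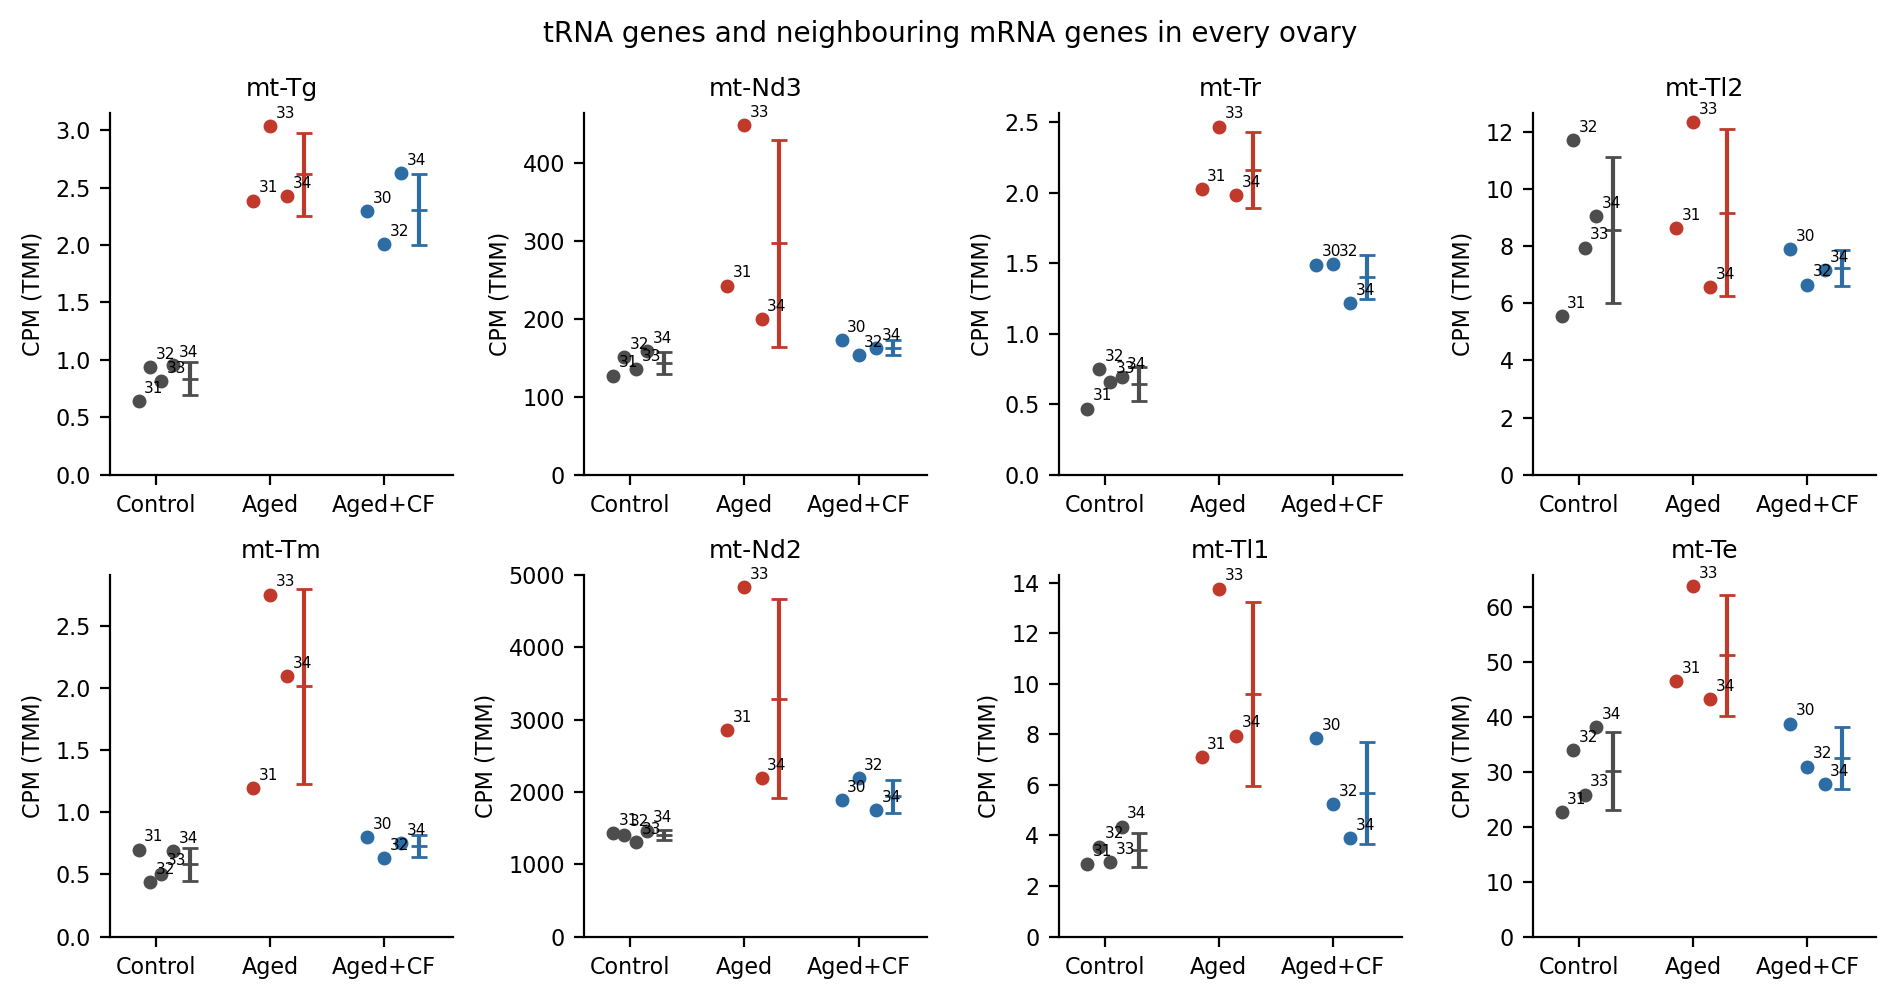
CPM per ovary of mt-Tg, mt-Nd3, mt-Tr, mt-Tl2, mt-Tm, mt-Nd2, mt-Tl1 and mt-Te; points are ovaries labelled by number, side bars the mean ± SD. For mt-Tg all 3 Aged+CF ovaries lie above every Control ovary, and for mt-Tl2 the 3 groups overlap.

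On the strand of mt-Nd6, 8 tRNA genes are encoded, of which 6 were tested and 2 were called higher in Aged (6 at unadjusted p), with a median log2 fold of 1.06. Of the 14 on the other strand 9 were tested and 4 called (5 at unadjusted p), with a median of 1.48. mt-Te, the tRNA for glutamate, had 22.7, 34.04, 25.9 and 38.2 CPM (Control), 46.6, 63.9 and 43.3 (Aged) and 38.8, 30.96 and 27.8 (Aged+CF), the most of any tRNA gene. Aged 34 stood close to Control 34 and Aged+CF 30, and mt-Te was called (0.76 ± 0.21, adjusted p 0.0358) but not without Aged 33 (0.61, adjusted p 0.0917), Aged 31, Aged+CF 32, or Control 31, 32 or 33 (adjusted p 0.0521 to 0.0917). Its call was also lost with no filter on low counts and with only the 2 groups compared. mt-Ty, for tyrosine, had 3.91, 4.99, 4.11 and 7.05 CPM (Control) and 9.48, 17.8 and 7.44 CPM (Aged), with Aged 34 barely above Control 34. It too was called (1.20 ± 0.34, adjusted p 0.0389) but not without Aged 33 (0.79, adjusted p 0.115), Aged 31, Aged+CF 34, or Control 31, 32 or 33 (adjusted p 0.0521 to 0.115). With no filter on low counts or with only the 2 groups compared mt-Ty was not called either. mt-Tc and mt-Tn, for cysteine and asparagine, stand beside mt-Ty between mt-Nd2 and mt-Co1, and neither was called by edgeR (log2 fold 1.06 and 1.07, adjusted p 0.0517 and 0.0540), though by DESeq2 and without Aged 34 both were (log2 fold 1.33 and 1.35, adjusted p 0.0158 and 0.0157). Without Aged 33 their log2 folds were 0.64 and 0.61 (adjusted p 0.159 and 0.168). With mt-Ta, these 4 neighbours summed to 23.2 ± 5.90 CPM (Control), 49.9 ± 24.4 (Aged) and 22.4 ± 6.40 (Aged+CF), Aged 33 being the highest (77.7). mt-Tk, chosen after its values were seen, was the 1 tested gene with a negative log2 fold in Aged vs Control (−0.15, adjusted p 0.804). Without Aged 34 all 31 mt- genes tested in that fit had a positive log2 fold. The 7 tRNA genes not tested summed to 10 to 19 counts in 8 ovaries, but 141 in Aged 33 and 91 in Aged+CF 32, most of it mt-Ts2 (116 and 77 counts, 1 in each of the other 8; chosen after its values were seen), a gene that overlaps mt-Tl2 by 1 bp.

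In Aged+CF vs Aged, edgeR called 0 of 30 mt- genes at adjusted p, DESeq2 called 7 lower (mt-Rnr1, mt-Rnr2, mt-Tm, mt-Tc, mt-Ty, mt-Nd3 and mt-Nd4). Over all tested genes edgeR called 1 lower (0.00528 %), and DESeq2 241 of 36618. At unadjusted p, 19 of 30 were lower in Aged+CF (7 protein, 2 rRNA and 10 tRNA genes), beside 768 of all tested genes (4.05 %). All Aged+CF ovaries lay below all Aged ovaries for 20 of 30 genes, beside 1590 of all tested genes (8.39 %). The direction ran opposite to that of Aged vs Control, with 29 of 30 log2 folds negative and medians of −0.59 for protein, −0.93 for rRNA and −0.74 for tRNA genes (−0.02 for all tested genes). Both comparisons share the Aged ovaries, so a high Aged value enters both. The lowest values were those of mt-Tm (−1.45 ± 0.36, adjusted p 0.161) and mt-Ty (−1.28 ± 0.37, adjusted p 0.178), and mt-Rnr1 (−1.003 ± 0.23, adjusted p 0.161) was lower than mt-Rnr2 (−0.85 ± 0.24, adjusted p 0.177). Among protein genes mt-Nd3 (−0.87 ± 0.25, adjusted p 0.180) and mt-Nd2 (−0.76 ± 0.25, adjusted p 0.211) were lowest, and mt-Nd5 stood nearest to 0 (−0.29 ± 0.20, adjusted p 0.499). Without Aged 33 all of these were nearer to 0: mt-Tm −1.17, mt-Ty −0.83, mt-Rnr1 −0.73, mt-Rnr2 −0.57, mt-Nd3 −0.44, mt-Nd2 −0.38 and mt-Nd5 −0.05. Among protein genes mt-Nd4 (−0.44) then stood beside mt-Nd3 as lowest, and mt-Atp8 (−0.05) beside mt-Nd5 as nearest to 0. Without Aged 33 the 19 genes at unadjusted p became 5 (mt-Rnr1, mt-Ti, mt-Tm, mt-Tc and mt-Ty, mt-Ti chosen after its values were seen), beside 778 lower of the 19626 genes tested in that fit. The medians then went to −0.28 for protein, −0.65 for rRNA and −0.48 for tRNA genes. Without Aged 34 6 genes were called at adjusted p: mt-Rnr1 (−1.09), mt-Nd2 (−1.001), mt-Nd3 (−1.10), mt-Nd4 (−0.90), mt-Co3 (−0.84) and mt-Ty (−1.53). The count over all tested genes of that fit is not given here, so these 6 calls cannot be set against it. With Aged+CF 32 or Aged+CF 34 left out the count at unadjusted p was 13 and 14. With only the 2 groups compared it was 11 (2 protein, 2 rRNA and 7 tRNA genes), and with the replicate block 5. The count of mt- genes thus depended on single Aged and Aged+CF ovaries and on the model. For the fits without Aged+CF 32 or 34, with only the 2 groups and with the block, the counts over all tested genes are not given here. These mt- counts stand without a share beside them. With all 10 ovaries the calls at adjusted p came from DESeq2 and not from edgeR.

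By the median log2 fold of each class Aged+CF stood closer to Control than to Aged. Without Aged 33 the protein medians were 0.215 against Control and −0.284 against Aged. Single genes then went both ways: mt-Nd2 was nearer to Aged (−0.38) than to Control (0.50), mt-Nd3 nearer to Control (0.22) than to Aged (−0.44). In Aged+CF vs Control edgeR called 0 of 30 at adjusted p, beside 26 of all tested genes (0.137 %), DESeq2 called 2 (mt-Tg and mt-Tr) beside 304 higher of all 36618 genes it tested, and 3 were higher at unadjusted p (mt-Tg, mt-Tr and mt-Tl1), beside 631 of all tested genes (3.33 %). Median log2 folds were 0.19 for protein genes, of which 13 of 13 were positive, 0.01 for rRNA genes, and −0.005 for tRNA genes, of which 8 of 15 were negative. All Aged+CF ovaries lay above all Control ovaries for 5 of 30 genes (mt-Nd2, mt-Co1, mt-Atp8, mt-Tg and mt-Tr), beside 1837 of all tested genes (9.69 %). mt-Tg stayed highest (1.46 ± 0.24, adjusted p 0.0561), with an adjusted p of 0.0437 without Aged 33 (1.49) and 0.0223 without Aged 34 (1.48), where it was called. mt-Tr followed (1.12 ± 0.25, adjusted p 0.116), and both it and mt-Tg had no overlap between Aged+CF and Control ovaries. Among protein genes other than mt-Atp6, whose groups overlapped, mt-Nd2 was the highest (0.47 ± 0.23, adjusted p 0.389), also with no overlap between the groups.

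The share of each gene among reads of the protein genes shows whether all moved by the same factor, with mt-Atp6 left out for its uncertain reads; these shares and ratios were chosen after the values were seen and were not tested. mt-Nd2 made up 5.68, 5.16, 5.16 and 5.13 % (Control), 7.19, 7.53 and 6.57 % (Aged) and 5.93, 7.14 and 5.95 % (Aged+CF). Aged and Control did not overlap, and Aged+CF 32 stood at the Aged level. mt-Nd3 made up 0.538 ± 0.0230 %, 0.636 ± 0.0547 % and 0.532 ± 0.0272 %, higher in every Aged ovary than in the rest, while mt-Cytb made up 14.2 ± 0.525 %, 13.3 ± 0.280 % and 13.8 ± 0.603 %, lower in every Aged than in every Control ovary. mt-Co1 made up 37.6 ± 1.35 %, 36.8 ± 0.336 % and 38.2 ± 0.976 %, with Aged and Control overlapping and every Aged+CF ovary above every Aged ovary. mt-Nd1 made up 8.43 ± 0.0318 %, 8.86 ± 0.558 % and 8.05 ± 0.406 %, with Aged 31 (8.484 %) barely above Control 31 (8.459 %) and Aged+CF 30 (8.482 %). In every Aged+CF ovary mt-Co2 and mt-Nd4 were lower and mt-Nd5 higher than in every Aged ovary. mt-Co2 was also lower in every Aged+CF than in every Control ovary. For mt-Atp8, mt-Co3, mt-Nd4l and mt-Nd6 the groups overlapped in every comparison. Set against mt-Co1, mt-Nd2 had 0.140 ± 0.00517, 0.193 ± 0.0129 and 0.166 ± 0.0224 counts per count. For every 100 counts of mt-Nd3, mt-Tg had 0.505, 0.620, 0.599 and 0.601 (Control), 0.984, 0.677 and 1.22 (Aged) and 1.33, 1.31 and 1.62 (Aged+CF). Every Aged+CF ovary thus stood above every Aged ovary, and every Aged above every Control ovary in this ratio. For mt-Tr per 100 counts of mt-Nd3, Aged (0.551 to 0.995) and Aged+CF (0.751 to 0.972) overlapped. Both lay above Control (0.496 at most). The ratio of mt-Nd6 to mt-Nd5, neighbours on opposite strands that overlap by 14 bp, was 0.268 ± 0.0132, 0.284 ± 0.0295 and 0.238 ± 0.0127.

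A stretch of chromosome 1 (chr1:24611535-24616197, − strand, GRCm38) holds 7 annotated copies of mt-Co1, mt-Co2, mt-Atp6, mt-Co3, mt-Nd3, mt-Nd4l and mt-Nd4, in the same order as on chrM, with 99.7 to 100 % identity over the aligned bases. Within the aligned bases 2 substitutions were found, T3C between mt-Nd3 and Gm28438 and A1066T between mt-Co1 and Gm29216, so nearly any read inside the aligned bases fits both places; 483 of the 492 bases of Gm29216 aligned. The start of mt-Nd3 (chrM:9459-9475, + strand) and of Gm28438 (chr1:24613103-24613119, − strand) is shown because it holds the 1 aligned base that tells this copy from its gene; the capital marks that base.
mt-Nd3: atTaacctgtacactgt
Gm28438: atCaacctgtacactgt

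The copies took 0.912 ± 0.0733 % of counted reads (Control), 1.36 ± 0.341 % (Aged) and 0.965 ± 0.0438 % (Aged+CF), and how many of these reads came from the mitochondrial genes was not tested. In Aged vs Control 5 of 7 copies were called higher (6 at unadjusted p, 6 by DESeq2, 1 without Aged 33), with a median log2 fold of 0.76. Over all tested genes the same rules called 5.001 % higher (8.79 % at unadjusted p, 1427 of 36618 by DESeq2, 812 of 19626 without Aged 33). In Aged+CF vs Aged 0 copies were called by edgeR (5 lower at unadjusted p, 2 by DESeq2), beside 4.05 % of all tested genes at unadjusted p and 241 of 36618 by DESeq2. For mt-Co3 the copy had 1.03 to 1.09 counts for each count of the gene, and for mt-Co2 0.972 to 1.02, so neither level can be assigned to 1 of the 2 places. For mt-Nd4l it had 1.005 to 1.055, and for mt-Nd4 0.344 to 0.391. For mt-Co1 the copy had 0.104 counts per count of the gene in Aged 33 and 0.139 to 0.186 in the other ovaries. Why Aged 33 differs there was not tested. For mt-Nd3 the copy had 1.13 to 1.17 counts per count of the gene in the Control ovaries and 1.02 to 1.05 in the Aged ovaries, without overlap, and the part of this in the level of mt-Nd3 was not tested. Gaps of 69 and 74 bp between the copies of mt-Co3, mt-Nd3 and mt-Nd4l sit where chrM carries mt-Tg and mt-Tr (68 and 70 bp between the genes), and gaps of 233 and 140 bp where it carries mt-Tk with mt-Atp8 and mt-Ts1 with mt-Td (230 and 140 bp), so reads of these genes, mt-Atp8 among them, may also fit chromosome 1; the sequence of the gaps was not compared here. mt-Nd1, mt-Nd2, mt-Nd5, mt-Nd6, mt-Cytb, both rRNA genes, mt-Tm, mt-Tl1, mt-Te and mt-Ty have no annotated counterpart among these copies, and of these genes mt-Nd2, mt-Tm and mt-Tl1 kept their calls with any ovary left out.

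Lists of nuclear genes for the same machinery were followed in the same fit. Of 36 nuclear complex I subunits 0 were called by edgeR in Aged vs Control (3 higher at unadjusted p, 3 by DESeq2), beside 8.79 % of all tested genes at unadjusted p and 1427 of 36618 by DESeq2. Of their log2 folds 35 were positive with a median of 0.34, which went to 0.12 without Aged 33. In Aged+CF vs Aged 0 were called by edgeR (3 lower at unadjusted p, beside 4.05 % of all tested genes, and 0 by DESeq2). All 36 were then negative with a median of −0.37, but without Aged 33 25 were negative with a median of −0.05 and 0 were lower at unadjusted p. Their summed CPM were 1937, 2242, 1999 and 2123 (Control), 2281, 3492 and 2016 (Aged) and 1989.8, 2045 and 2109 (Aged+CF), so only Aged 33 stood clearly above. Called higher in Aged, by the rule that called 5.001 % of all tested genes higher, were 1 of 9 complex III subunits (Uqcr10, 0.67, adjusted p 0.0398), 1 of 15 complex IV subunits (Ndufa4, 0.62, adjusted p 0.0459), 1 of 42 assembly factors (Ndufaf3, 0.65, adjusted p 0.0385) and 1 of 24 RNA processing genes (Lactb2, a mitochondrial endoribonuclease, 0.83, adjusted p 0.00589). By edgeR 0 of 4 complex II subunits (0 at unadjusted p, 1 by DESeq2) and 0 of 16 ATP synthase subunits (0 at unadjusted p, 0 by DESeq2) were called. Mitochondrial transcription genes (0 of 11), mtDNA maintenance genes (0 of 16), rRNA and tRNA modification genes (0 of 18) and markers of mitochondrial mass (0 of 16) had no call by edgeR either, with 0 at unadjusted p and 0 by DESeq2 in each. Of 23 mitochondrial aminoacyl-tRNA synthetases 0 were called by edgeR (1 lower at unadjusted p, Wars2 at −1.13, and 1 by DESeq2), and of 10 regulators of biogenesis 1 was called lower (Esrrg, −1.24, adjusted p 0.0498). Without Aged 33 only the call of Lactb2 was left among these nuclear subunit, assembly, RNA processing and biogenesis genes. Aged 33 was again the ovary with the highest sums in the respiratory chain lists. In Aged+CF vs Aged DESeq2 called 1 mass marker and 1 RNA processing gene lower, and edgeR called 0 of either list. At unadjusted p 1 gene each of the transcription, RNA processing, complex III, complex IV and mass lists was lower, beside 4.05 % of all tested genes. At that rule 1 regulator of biogenesis was higher, beside 3.91 %. Without Aged 33 0 genes of those 5 lists were lower at unadjusted p.

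A lower or higher level in a whole ovary can come from more or fewer cells of a type or from more or less RNA per cell, and these cannot be told apart in bulk RNA. Marker lists moved in Aged vs Control as well, where edgeR called 5.001 % of all tested genes higher and 6.06 % lower: called higher were 7 of 7 luteal markers, 5 of 7 theca and interstitial markers (Star, Cyp11a1 and Lhcgr stand in both lists, and Insl3, chosen after its values were seen, was lower at unadjusted p), 5 of 5 erythrocyte markers, 4 of 6 endothelial markers, 3 of 5 B and plasma cell markers, 2 of 4 T cell markers and 1 of 6 macrophage markers, and called lower were 11 of 14 oocyte markers and 1 of 10 granulosa markers (4 by DESeq2). Without Aged 33 the endothelial calls went from 4 to 1, the theca and interstitial calls from 5 to 4 and the oocyte calls from 11 to 10. By edgeR 0 of 6 stromal, 0 of 5 smooth muscle, 0 of 5 surface epithelial, 0 of 6 oviduct and 0 of 5 adipocyte markers were called, with 0 at unadjusted p and 0 by DESeq2 in each. Luteal markers (most abundant Cyp11a1, 0 of 7 without counts) summed to 9259, 5872, 8162 and 3671 CPM (Control), 24337, 34863 and 13694 CPM (Aged) and 11984, 20001 and 11341 CPM (Aged+CF), and without Aged 33 3 of 7 were called. Erythrocyte markers (most abundant Hba-a1, 0 of 5 without counts) summed to 80.5, 112, 88.5 and 71.8 CPM, 418, 638 and 265 CPM and 145, 109 and 260.1 CPM. Oocyte markers (most abundant Padi6, 0 of 14 without counts) summed to 522, 693, 539 and 688 CPM, 178, 166 and 66.8 CPM and 265, 239.8 and 351 CPM. The luteal and erythrocyte sums, like the share of mitochondrial reads, were highest in Aged 33 among all ovaries, while the oocyte sum was lowest in Aged 34. In Aged+CF vs Aged edgeR called 0 genes of any marker list; at unadjusted p 4 of 5 erythrocyte (4 called by DESeq2), 5 of 5 B and plasma cell (3 by DESeq2), 3 of 4 T cell (0 by DESeq2), 2 of 7 theca and interstitial (1 by DESeq2), 1 of 7 luteal (1 by DESeq2), 1 of 6 endothelial (1 by DESeq2), 1 of 6 macrophage (0 by DESeq2), 1 of 6 oviduct (0 by DESeq2) and 1 of 1 brown adipocyte markers (0 by DESeq2) were lower, beside 4.05 % of all tested genes. The DESeq2 numbers are calls at its adjusted p. At unadjusted p DESeq2 had 3 T cell, 1 macrophage, 1 oviduct and 1 brown adipocyte markers lower too. By edgeR at unadjusted p 4 of 14 oocyte markers and 1 of 10 granulosa markers were higher, beside 741 of all tested genes (3.91 %). DESeq2 had 7 and 1 of them higher at unadjusted p and called 0 of either list. Of 5 brown adipocyte markers only 1 was tested, and its log2 fold (−1.23) is also the lowest of the complex IV subunits. The same gene is thus counted in both lists. Without Aged 33 2 brown adipocyte markers were tested and 0 were lower at unadjusted p. The part of the marker lists in the mt- results was not tested.

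The groups have 3 or 4 ovaries, age goes together with every change in cell makeup between Control and Aged, and the handling of reads that fit more than 1 place is not given in the sources used here. RNA levels say nothing of mitochondrial DNA copies, protein or respiration, which were not analysed here.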

How the data were processed

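RNA of 10 whole ovaries was measured, 4 Control, 3 Aged and 3 Aged+CF, each as 1 library. Per the labels, the authors aligned reads with TopHat and deposited raw read counts, 1 count per gene and ovary; GRCm38.p4 and Cufflinks 2.1.1 are named without a role, and the counting tool, the strand and the handling of reads that fit several places are not given in the sources used here. The FPKM deposited by the authors scale each count by 1 fixed length per gene and by the column's read total, and were used only to set genes beside each other. Gene positions and sequences came from GENCODE M21.

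Counts were normalised by TMM and fitted over all genes of all 10 ovaries in R 4.3 with edgeR 4.0 (filterByExpr, glmQLFit and glmQLFTest, group means only), which tested 18956 genes; p-values were adjusted over all of them by Benjamini and Hochberg. The code was tested on simulated data. Alternatives were DESeq2 1.42 (its size factors and its Wald test), scaling without the mt- genes, no filter on low counts, only the 2 groups compared, a replicate block, and each ovary left out in turn. Library sizes were 15761789 to 21318254 counted reads, so a gene at 1 CPM had under 22 reads.

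Named were all mt- protein and rRNA genes, the 6 tRNA genes with the highest mean CPM, every called tRNA gene, and of each nuclear or marker list up to 4 genes per comparison with the largest fold (unadjusted p under 0.05, a mean of 1 CPM or more, ovaries of the 2 groups not overlapping). The members and the lists were chosen with earlier results of these data known. The groups come from the labels, and no ovary was left out of the values given unless stated.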

Additional observations from a re-analysis of the deposited data

How the results depend on the processing

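In Aged vs Control 15 mt- genes were called, beside 948 higher of all 18956 tested genes. The 15 became 9 with only the 2 groups compared and 0 with a replicate block. With 1 ovary left out the calls were 6 to 24. At unadjusted p they were 25, beside 1666 higher of 18956. The size factors of DESeq2 in the edgeR fit gave 21 calls. Those size factors with the Wald test of DESeq2 gave 24 (beside 1427 higher of all 36618 genes it tested). Scaling alone thus gave 6 of the 9 calls added by DESeq2. With only the 2 groups compared the lost calls were those of mt-Nd1, mt-Nd4l, mt-Nd6, mt-Co3, mt-Te and mt-Ty. For the settings other than scaling the cause was not tested. Over all tested genes the deviations of ovaries of the same number were weakly correlated (−0.185 to 0.153). Single ovaries also differed in cell markers, so these correlations cannot decide whether the numbers pair ovaries, which was not tested. In Aged+CF vs Aged the 0 calls became 7 by the Wald test of DESeq2 (beside 241 lower of 36618 genes). They became 19 at unadjusted p (beside 768 lower of 18956) and 0 to 6 with 1 ovary left out. In Aged+CF vs Control the 0 became 1 with only the 2 groups and 2 by the Wald test of DESeq2 (beside 304 higher of 36618). They became 3 at unadjusted p (beside 631 higher of 18956) and 0 to 1 with 1 ovary left out. The cause was not tested. Counts over all tested genes are not given here for the edgeR fit with DESeq2 size factors, the 2 groups alone or the block. Most fits with 1 ovary left out lack them too, so these mt- counts stand without a share beside them.

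Of 384 values in Aged vs Control, which cover only the genes named by rule in 16 settings each, 300 kept direction and side of the threshold. Of the rest 59 lost a call, 23 gained 1 and 2 reversed. Other genes could turn too, as mt-Th did (0.12, and −0.17 without Aged 33). mt-Tl2 reversed (main 0.10, −0.14 to 0.33 with 1 ovary left out). In Aged+CF vs Aged 370 of 384 kept both, 13 gained a call and mt-Atp6 reversed (−0.55, −1.01 to 0.17 with 1 ovary left out). In Aged+CF vs Control 365 of 384 kept both, 5 gained a call and 14 reversed: with 1 ovary left out mt-Rnr1 (−0.16 to 0.0789), mt-Rnr2 (−0.0004 to 0.23), mt-Tn (−0.23 to 0.16), mt-Tc (−0.24 to 0.12), mt-Ty (−0.24 to 0.13) and mt-Te (−0.0130 to 0.24), and with the replicate block mt-Rnr2 (−0.0821), mt-Nd6 (−0.0672) and mt-Te (−0.15); the cause was not tested.

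Without Aged 33 the Aged mean share of the protein genes went from 4.47 to 3.73 %, that of the rRNA genes from 0.0580 to 0.0506 % and that of the tRNA genes from 0.0133 to 0.0111 %, each still above the Control and Aged+CF means. In the 12 protein genes other than mt-Atp6 the means were 2.74, 4.25 and 3.08 % (Control, Aged and Aged+CF), and for all 13 protein genes, per 100 reads outside the mt- genes and their copies, 2.98, 4.76 and 3.39; both alternatives were chosen after seeing the data. Depth limits the tRNA genes: mt-Tg and mt-Tr had 8 to 56 reads and mt-Tm 7 to 39.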
